A study of Mus musculus with 6 samples.

Results

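A group of 10 genes that encode actin-disassembling, actin-branching, septin-scaffolding and microtubule proteins of the myelinating oligodendrocyte were followed in RNA from O4-purified brain cells: *Tppp*, *Tppp3*, *Tubb4a*, *Gsn*, *Anln*, *Wasf1*, *Wasf3*, *Cfl1*, *Cfl2* and *Dstn*. They were chosen by symbol, all 10 were found among the 55492 genes of the deposited table, and all 10 passed the filter on low values (a mean TPM of at least 0.5). The cells came from brains of untreated 16-day-old mice, in 3 WT and 3 *Npc1*-/- samples. Each sample, a biological replicate per the study's methods, was sequenced as its own library of poly(A) RNA. Whether a sample held cells of 1 mouse or of several is not stated. Per the study's methods, *Npc1*-/- mice carry the *Npc1* nih allele in every cell and are F1 hybrids of the BALB/cJ and C57BL6/J backgrounds, with littermates used in experiments. O4 is a lipid antigen of late progenitors and immature oligodendrocytes, and the cells were captured with antibody-coated magnetic microbeads. *Npc1* itself had a log2 fold change of -3.17 (adjusted p = 0.000398 by limma), in the direction of the genotype labels.

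A myelinating process first spreads over the axon on a leading edge pushed by branched actin, which the WAVE proteins switch on through the Arp2/3 complex. Wrapping and compaction then go along with actin disassembly, in which gelsolin and the ADF/cofilin proteins cut and depolymerise filaments. Microtubules carry myelin proteins and mRNA outward, TPPP nucleates and bundles them away from the cell body, and septin filaments anchored by anillin line the finished sheath.

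Levels are given as scaled TPM, which is the deposited TPM (a gene's part of all transcripts, already divided by transcript length) over a size factor per sample. The size factor is the median ratio of a sample to the geometric mean over 18690 genes, and it lay between 0.727 and 1.3. A positive fold change means a higher level in *Npc1*-/- samples, on log2(scaled TPM + 0.5), a scale that understates changes of low genes. The model was limma over 15245 genes. Calls needed an adjusted p (Benjamini-Hochberg) below 0.05 and a log2 difference of 0.1 or more in size. Sample values are listed in the order of replicates 1, 2 and 3. Low FPKM values come in steps of 1 fragment, and these gave depths between 40750000 and 50250000 fragments per library. The lowest member value, 22.4 TPM of *Wasf1* in *Npc1*-/- replicate 3, then stands for about 805 fragments per kilobase of transcript.

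None of the 10 genes was called between genotypes by limma, where 0.813% of all genes tested were (0.400% higher and 0.413% lower), and at an adjusted p below 0.1 the count was 1 (*Gsn*) beside 8.95%. *Gsn* alone had an unadjusted p below 0.05, so 1 of 10 stands beside a background of 22.2%. In *Gsn* and *Tubb4a* all *Npc1*-/- samples lay above all WT samples, which is 2 of 10 beside 27.5% of all genes for groups that do not overlap (13.3% higher and 14.2% lower, the latter with 0 members). The median log2 fold change of the members was 0.31, with 6 above 0 and 4 below, against a median of 0.01 and 51.0% above 0 over all genes. The member values depended on the scaling. After quantile normalization, with a median of 0.01 over all genes, they were -0.47, -0.36, -0.29, -0.11, -0.07, 0.12, 0.17, 0.24, 0.40 and 0.52. All 10 ranked 2415 or better by level among the genes tested, and no background of like level was computed. The make-up of a gene family within a sample does not depend on scaling between samples, and was compared as well. The ratios of *Tppp3* to *Tppp*, *Cfl2* to *Dstn* and *Wasf3* to *Wasf2* were higher in every *Npc1*-/- sample than in any WT sample, whereas that of *Wasf3* to *Wasf1* overlapped. The exact permutation p was 0.1 for each of the first 3, the smallest that 3 samples against 3 allow, so no share or ratio could pass 0.05. These ratios were picked after their values were seen, and how often other families differ in this way was not computed.

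**Figure D1:**
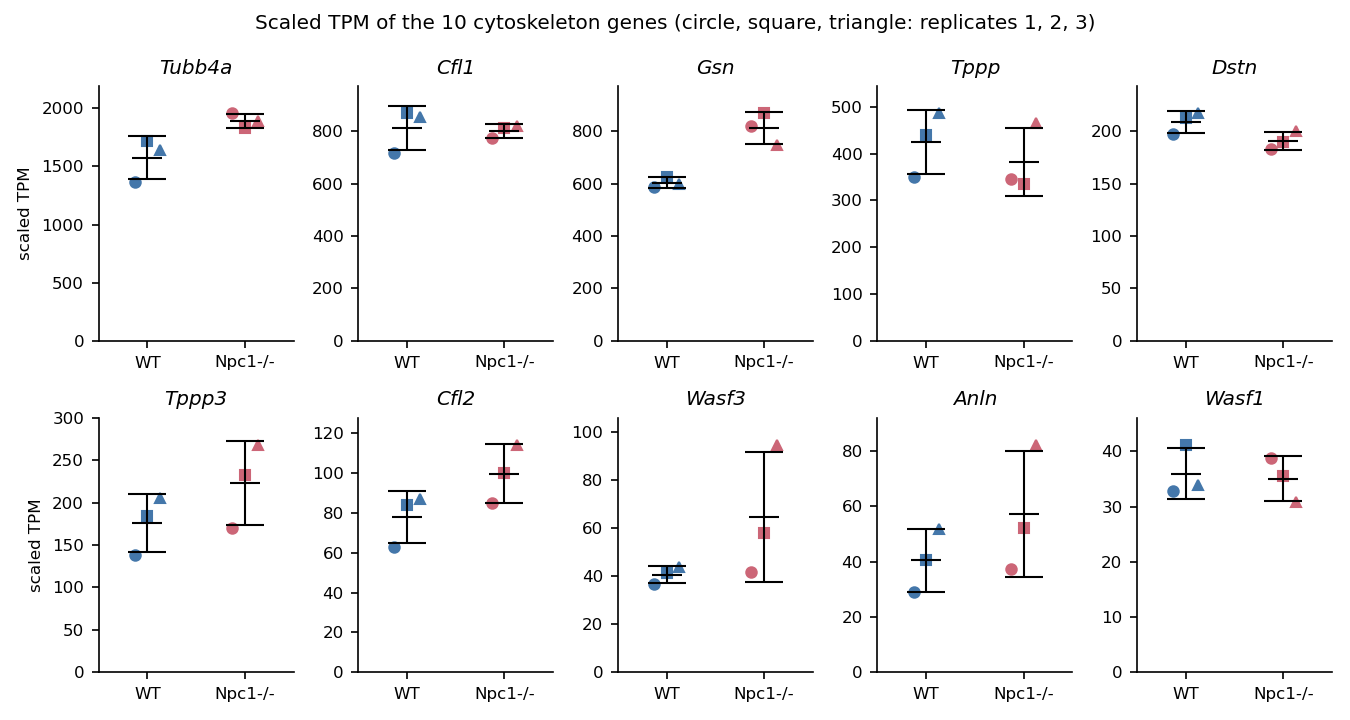
Scaled TPM (vertical axes, from 0) of each of the 10 genes in the WT and *Npc1*-/- samples, one panel per gene in order of level, with points for samples and black bars for mean and SD (n = 3). Only *Tubb4a* and *Gsn* have groups that do not overlap, and *Wasf3* and *Anln* spread most among *Npc1*-/- samples.

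Since TPM is per length, the 10 levels can be ordered. By the mean over all 6 samples *Tubb4a* came first with 1733 scaled TPM, followed by *Cfl1* with 807, *Gsn* with 708 and *Tppp* with 404. *Dstn* and *Tppp3* followed at 200 each, then *Cfl2* at 88.7, *Wasf3* at 52.8, *Anln* at 48.8 and *Wasf1* at 35.5. The ranges over samples overlapped between *Cfl1* and *Gsn*, between *Dstn* and *Tppp3*, and between neighbours from *Cfl2* down to *Wasf1*. Within each sample *Cfl2* was nonetheless above *Wasf3*. The order of the other overlapping pairs changed between samples, so those cannot be ranked. Among the genes tested *Tubb4a* ranked 40 by level and *Wasf1* 2415.

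Gelsolin severs actin filaments and caps their ends. *Gsn* (ENSMUSG00000026879, chromosome 2 of GRCm38, 35256380 to 35307892, plus strand) reached 586, 625 and 600 scaled TPM across WT samples, against 819, 868 and 749 across *Npc1*-/- samples. The groups were separate, with means of 604 ± 19.9 (SD, n = 3) and 812 ± 60.2 (SD, n = 3). The log2 fold change was 0.43 (95% interval 0.16 to 0.69, adjusted p = 0.0875 by limma), so the gene missed the threshold after adjustment. It stayed between 0.38 and 0.48 with any 1 sample left out, and was 0.05 on TPM as deposited, where the median of all genes was -0.33. After quantile normalization, where that median was 0.01, it was 0.12 (adjusted p = 0.700 by limma). Fibroblasts and smooth muscle also express gelsolin. The summed level of 5 fibroblast markers was 64.4 to 100 in WT and 41.0 to 62.9 in *Npc1*-/- samples, and that of 3 smooth muscle markers 415 to 572 and 210 to 335. The 7 mature oligodendrocyte markers all had log2 fold changes above 0. Of them *Mag* and *Cldn11* were higher without overlap between groups, 2 of 7 beside 13.3% of all genes. The part of these cell types in the value of *Gsn* was not tested. In bulk RNA, fewer cells of a type and less RNA per cell cannot be told apart.

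The ADF/cofilin proteins bind and cut ageing actin filaments. *Cfl1* (ENSMUSG00000056201, chromosome 19, 5490455 to 5495201), the main form outside muscle, had 715, 868 and 853 scaled TPM in WT and 772, 812 and 821 in *Npc1*-/- samples. The *Npc1*-/- samples lay inside the WT range, with a log2 fold change of -0.01 and a 95% interval from -0.31 to 0.28. Quantile normalization gave -0.36, outside that interval (adjusted p = 0.0764 by limma). *Snx32* overlaps *Cfl1* on the opposite strand, at a mean of 17.5 TPM. *Cfl2* (ENSMUSG00000062929, chromosome 12, 54858809 to 54862877), known as the muscle form, had 62.9, 83.8 and 86.9 in WT and 84.7, 100 and 114 in *Npc1*-/- samples. The groups overlapped in that WT replicate 3 exceeded *Npc1*-/- replicate 1, and the log2 fold change of 0.36 had a 95% interval of -0.02 to 0.73 (adjusted p = 0.247 by limma). Without WT replicate 1 it was 0.21. *Dstn* (ENSMUSG00000015932, chromosome 2, 143915320 to 143943324), which encodes destrin, the ADF of this family, had 197, 213 and 217 in WT and 183, 190 and 200 in *Npc1*-/- samples. WT replicate 1 lay within the *Npc1*-/- range, and the log2 fold change was -0.13 (95% interval -0.34 to 0.08), or -0.29 after quantile normalization (adjusted p = 0.0763 by limma).

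Within the summed TPM of the 3 ADF/cofilin genes, *Cfl1* held 73.9% ± 0.591 in WT and 73.4% ± 0.945 in *Npc1*-/- samples (SD, n = 3), a difference below the spread. The share of *Cfl2* was 6.46%, 7.19% and 7.50% in WT and 8.15%, 9.08% and 10% in *Npc1*-/- samples. That of *Dstn* was 20.2%, 18.3% and 18.8% in WT and 17.6%, 17.2% and 17.6% in *Npc1*-/- samples. Both shares were separate between genotypes, *Cfl2* higher and *Dstn* lower (exact permutation p = 0.1 each, 0.160 adjusted over 8 shares). In ratio, *Dstn* to *Cfl2* stood at 2.72 ± 0.348 in WT and 1.94 ± 0.208 in *Npc1*-/- samples (SD, n = 3).

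The bases before the transcription start of *Cfl1* and *Cfl2* and of the first and last starts of *Gsn* are shown as a description of these actin-disassembly genes, none of which was called. They are the 250 bases upstream of each start in RefSeq on GRCm38.p6, 5′ to 3′ on the gene's strand, and 9 of the 10 members had an entry. Capitals mark E-boxes (CANNTG) and GC boxes (GGGCGG or its reverse complement), matches that overlap included. The table of values does not say which start of *Gsn* was used.
Cfl1, chr19:5490205-5490454, plus strand: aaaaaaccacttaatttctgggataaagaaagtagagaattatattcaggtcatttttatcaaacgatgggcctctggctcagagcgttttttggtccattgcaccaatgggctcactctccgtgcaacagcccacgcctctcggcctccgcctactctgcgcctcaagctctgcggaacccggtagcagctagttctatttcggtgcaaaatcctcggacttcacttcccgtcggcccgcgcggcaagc
Cfl2, chr12:54862878-54863127, minus strand: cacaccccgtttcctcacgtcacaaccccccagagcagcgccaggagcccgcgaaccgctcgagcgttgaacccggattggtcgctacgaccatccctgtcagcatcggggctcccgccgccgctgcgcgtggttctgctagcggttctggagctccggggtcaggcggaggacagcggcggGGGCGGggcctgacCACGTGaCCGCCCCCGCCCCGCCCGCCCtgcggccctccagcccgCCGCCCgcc
Gsn, first start, chr2:35256109-35256358, plus strand: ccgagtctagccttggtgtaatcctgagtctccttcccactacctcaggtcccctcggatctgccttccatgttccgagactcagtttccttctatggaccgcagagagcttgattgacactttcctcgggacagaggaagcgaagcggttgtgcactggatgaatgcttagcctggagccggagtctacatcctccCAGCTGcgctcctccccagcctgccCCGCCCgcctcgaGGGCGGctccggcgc
Gsn, last start, chr2:35282130-35282379, plus strand: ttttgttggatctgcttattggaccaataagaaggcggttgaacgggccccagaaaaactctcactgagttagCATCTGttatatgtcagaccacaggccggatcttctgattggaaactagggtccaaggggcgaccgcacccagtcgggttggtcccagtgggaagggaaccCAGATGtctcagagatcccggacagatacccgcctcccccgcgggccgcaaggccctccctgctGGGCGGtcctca
The *Cfl2* window held 6 GC boxes and 1 E-box, and the *Cfl1* window neither. The window of *Dstn*, not printed because it runs into the annotated 5′ UTR, held 3 GC boxes and 2 E-boxes. The first *Gsn* window held 2 GC boxes and 1 E-box, the last 1 and 2. Over 32851 starts, 32.7% of windows of this length held a GC box and 66.2% an E-box, so these matches are a description and no sign of a bound factor.

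TPPP, the tubulin polymerization promoting protein, seeds microtubules in oligodendrocyte processes, and TPPP3 is a shorter paralog. *Tppp* (ENSMUSG00000021573, chromosome 13, 74009407 to 74035753) had 350, 439 and 486 scaled TPM in WT and 345, 336 and 465 in *Npc1*-/- samples. The groups overlapped, with a log2 fold change of -0.16 (95% interval -0.57 to 0.26, adjusted p = 0.663 by limma). With TPM left unscaled it was -0.53, past the threshold (adjusted p = 0.0476 by limma), where the median of all genes was -0.33. After quantile normalization it was -0.47 (adjusted p = 0.0562 by limma). *Tppp3* (ENSMUSG00000014846, chromosome 8, 105467493 to 105471526) had 138, 184 and 205 in WT and 170, 232 and 268 in *Npc1*-/- samples, again with overlap. Its log2 fold change was 0.34 (95% interval -0.15 to 0.83), or -0.03 on TPM as deposited. *Tppp2*, the remaining paralog, was listed at 0 in every sample but *Npc1*-/- replicate 2.

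Set against each other within a sample, the 2 expressed TPPP genes separated the genotypes. The ratio of *Tppp* to *Tppp3* was 2.53, 2.39 and 2.37 in WT and 2.03, 1.45 and 1.74 in *Npc1*-/- samples. WT samples were close together, and every *Npc1*-/- sample lay below them. *Tppp3* thus held 29.2% ± 0.732 of the family in WT and 36.8% ± 3.93 in *Npc1*-/- samples (SD, n = 3; exact permutation p = 0.1, 0.160 adjusted over 8 shares). The difference of 7.66 percentage points was 5.64 to 9.56 with 1 sample left out. The longest annotated transcript is 5090 bases for *Tppp* and 1396 for *Tppp3*, and longer transcripts had lower fold changes (rank correlation of -0.265 by Spearman's method across 15221 genes, which are not independent). With a curve on length removed, the log2 ratio of *Tppp* to *Tppp3* differed between genotypes by -0.33 in place of -0.50.

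**Figure D2:**
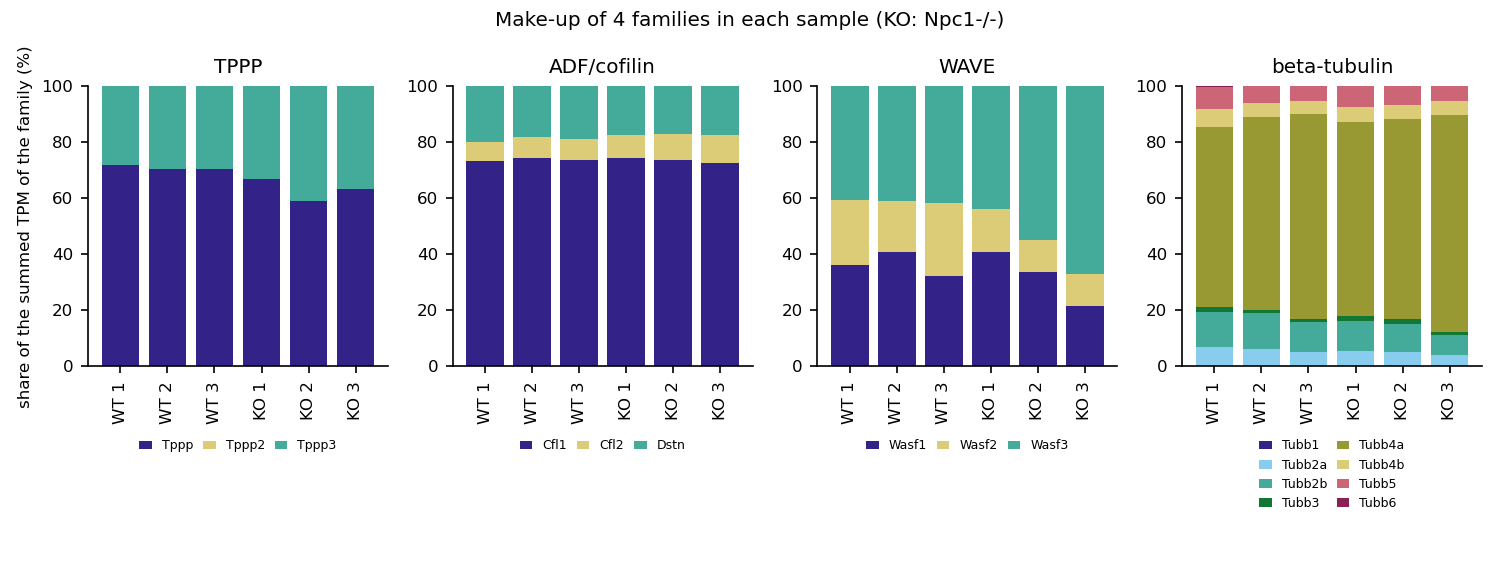
Share of each gene in the summed TPM of its family (vertical axis, percent) in the 3 WT and 3 *Npc1*-/- (KO) samples, for the TPPP, ADF/cofilin, WAVE and beta-tubulin families. *Tppp3*, *Cfl2* and *Wasf3* take a larger share in every *Npc1*-/- sample than in any WT sample, while the *Tubb4a* shares overlap.

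*Tubb4a* (ENSMUSG00000062591, chromosome 17, 57080066 to 57087782) encodes the beta-tubulin isotype that prevails in myelinating oligodendrocytes and in which mutations cause hypomyelinating leukodystrophy. It had 1364, 1719 and 1641 scaled TPM in WT and 1957, 1831 and 1888 in *Npc1*-/- samples. All *Npc1*-/- samples were above all WT samples, by 20.1% in the mean, with WT replicate 1 the lowest. The log2 fold change of 0.27 did not pass (95% interval -0.08 to 0.62, adjusted p = 0.340 by limma), and it turned to -0.10 on TPM as deposited and to -0.11 after quantile normalization. Without WT replicate 1 it was 0.17. Among the 8 beta-tubulin genes *Tubb4a* held 63.9%, 68.7% and 73.0% in WT and 69.0%, 71.3% and 77.6% in *Npc1*-/- samples. These shares overlapped (exact permutation p = 0.4). *Tubb2b*, next in size, held 11.9% ± 1.28 and 9.22% ± 1.91 (SD, n = 3), and reads of near-identical tubulin genes may be split between them. Neurons also express tubulins, and the summed level of 8 neuron markers was 66.6 to 97.6 in WT and 101 to 155 in *Npc1*-/- samples. Most of that difference came from *Nefl* (means of 16.3 and 38.7) and *Nefm* (6.78 and 15.2), and the list's median log2 fold change was 0.19. The part of neuronal RNA in *Tubb4a* was not tested.

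WAVE proteins turn signals of the GTPase Rac into Arp2/3 activation. *Wasf1* (ENSMUSG00000019831, chromosome 10, 40883475 to 40938570), which encodes WAVE1, had 32.8, 41.2 and 34.0 scaled TPM in WT and 38.9, 35.5 and 30.8 in *Npc1*-/- samples. The groups were mixed, with a log2 fold change of -0.04 and a 95% interval from -0.34 to 0.26. *Wasf3* (ENSMUSG00000029636, chromosome 5, 146384985 to 146473615), which encodes WAVE3, had 37.0, 41.5 and 43.7 in WT and 42.0, 57.9 and 94.8 in *Npc1*-/- samples. *Npc1*-/- replicate 1 lay within the WT range and replicate 3 far above it. The log2 fold change was 0.59 (95% interval -0.04 to 1.22, adjusted p = 0.254 by limma), and 0.27 without *Npc1*-/- replicate 3. That library is the one with *Xist* at 15.6 TPM and *Ddx3y* listed at 0, and it had the smallest size factor, 0.727. In every other sample *Xist* was at most 0.01 TPM and *Ddx3y* at least 14.4 TPM. Sex as read from these genes was thus not balanced between genotypes, and its part in the values of any member was not tested.

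*Wasf2*, which encodes the widely expressed WAVE2, had 21.0, 18.3 and 27.1 in WT and 14.8, 11.9 and 16.2 in *Npc1*-/- samples. These groups were separate, with a log2 fold change of -0.61 (adjusted p = 0.1 by limma). WAVE2 is abundant in immune and vascular cells, whose markers were also lower. All 5 microglia and all 4 endothelial markers lay below WT in every *Npc1*-/- sample, beside 14.2% of all genes. The median log2 fold changes of the 2 lists were -1.15 and -0.82. The part of these cells in the value of *Wasf2* was not tested. Of the summed WAVE TPM, *Wasf3* held 40.7%, 41.1% and 41.7% in WT and 43.9%, 55.0% and 66.9% in *Npc1*-/- samples. Every *Npc1*-/- share was above every WT share, by 14.1 percentage points in the mean (exact permutation p = 0.1, 0.160 adjusted over 8 shares), or by 8.25 without *Npc1*-/- replicate 3. The ratio of *Wasf3* to *Wasf2* was 1.88 ± 0.342 in WT and 4.52 ± 1.54 in *Npc1*-/- samples (SD, n = 3). That of *Wasf3* to *Wasf1*, the members of this family, was 1.13, 1.01 and 1.29 in WT against 1.08, 1.63 and 3.08 in *Npc1*-/- samples. These overlapped (exact permutation p = 0.3), with *Npc1*-/- replicate 1 inside the WT range.

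Anillin closes the cleavage furrow of dividing cells and, in myelin, holds septin filaments in place. *Anln* (ENSMUSG00000036777, chromosome 9, 22332012 to 22389188) had 28.9, 40.7 and 51.7 scaled TPM in WT and 37.2, 52.1 and 82.1 in *Npc1*-/- samples. Its coefficient of variation, 28.2% in WT and 40% in *Npc1*-/- samples, made the interval wide: a log2 fold change of 0.46 with limits of -0.28 and 1.19 (adjusted p = 0.447 by limma). The value was 0.16 without *Npc1*-/- replicate 3 and 0.24 without WT replicate 1, and 0.73 without *Npc1*-/- replicate 1. The 8 genes of cytokinesis and cycling summed to 13.2 to 28.5 in WT and 11.6 to 37.3 in *Npc1*-/- samples, and no gene of them was called or had an unadjusted p below 0.05. Anillin's partner *Septin8*, one of the myelin septins, had 205, 270 and 311 in WT and 366, 472 and 592 in *Npc1*-/- samples. Its groups were separate, with a log2 fold change of 0.86 (adjusted p = 0.0823 by limma). In the septin list 2 of 6 genes had an unadjusted p below 0.05, *Septin8* and *Cdc42ep1*, both higher, beside 10.6% higher over all genes. *Septin2* lay below WT in every *Npc1*-/- sample.

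**Figure D3:**
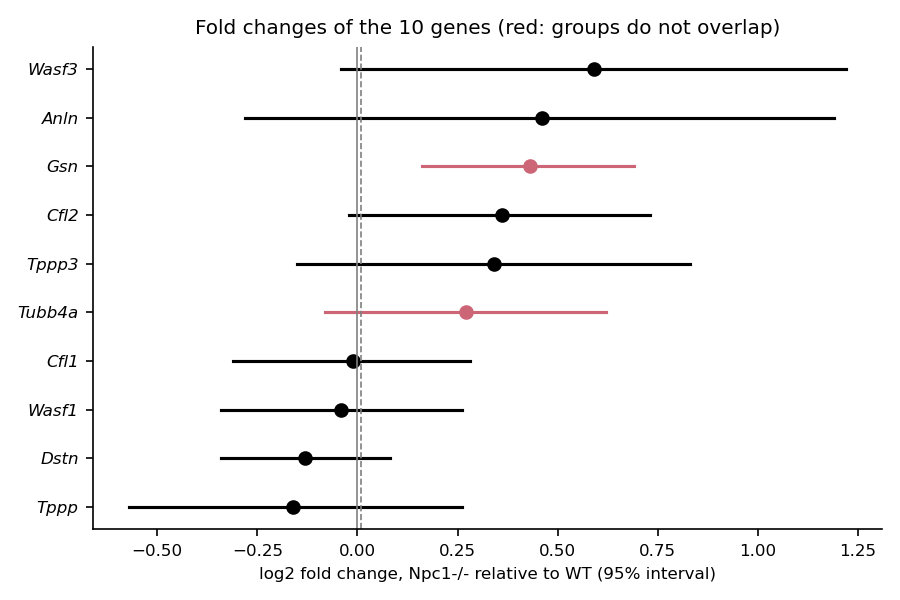
Log2 fold change of each of the 10 genes in *Npc1*-/- relative to WT (points) with the 95% interval from limma (lines), where the dashed line is the median of all genes, 0.01. The interval of *Gsn* alone lies above 0, and red marks *Gsn* and *Tubb4a*, whose groups do not overlap.

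The wider cytoskeleton was described with 9 lists of 100 genes, of which 96 were tested. *Stmn3* alone was called, 1 of 96 beside a background of 0.813% of all genes. In each direction 11 genes had an unadjusted p below 0.05, beside a background of 10.6% higher and 11.6% lower. *Stmn3*, of the stathmins that take up tubulin dimers, went from 51.8 to 81.9 in mean scaled TPM, or 0.66 on the log2 scale (adjusted p = 0.0364 by limma). The call was kept under 9 of 19 alternatives. Among others, it was lost with a curve on transcript length removed (adjusted p = 0.0568 by limma) and without trend (adjusted p = 0.0648 by limma). It was also lost in 5 of 6 fits with 1 sample left out, where the adjusted p reached 0.187. With 1 sample left out the log2 fold change itself stayed between 0.59 and 0.70. Neurons express stathmins as well. Of the 8 neuron markers, the neurofilament genes *Nefl* and *Nefm* were called as higher, with log2 fold changes of 1.22 and 1.11. The list's median was 0.19. *Rbfox3* and *Snap25* had 0.33 and 0.30, and *Syt1*, *Slc17a7*, *Gad1* and *Gad2* had 0.06, 0.04, 0.07 and -0.00. The part of neuronal RNA in the value of *Stmn3* was not tested.

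The 18 tested genes of microtubule nucleation and binding had a median log2 fold change of 0.21, the 11 tubulins 0.10, and the 10 Arp2/3 genes 0.00. In the microtubule list *Map7*, which recruits kinesin, had the highest value, 0.73, and *Map2*, of dendritic microtubules, the lowest, -0.31. Neither was called. The 7 WAVE complex partners had a median of -0.15, with 3 at an unadjusted p below 0.05, all lower (*Wasf2*, *Cyfip1* and *Abi1*) beside 11.6% lower over all genes, and *Brk1* was highest at 0.03. For the 20 genes of actin turnover the median was -0.05. Their highest value was *Tmsb10*, which sequesters actin monomers, with 720 and 1139 in mean scaled TPM (log2 fold change 0.66, adjusted p = 0.0584 by limma). *Cap2*, which recycles monomers, was lowest at -0.62. The 5 tested genes of the gelsolin superfamily had a median of -0.24, from *Svil* at -0.52 to *Vill* at 0.02, so *Gsn* was the member of its superfamily with the highest fold change. Further extremes were *Arpc5l* (0.28) and *Arpc1b* (-0.23) in the Arp2/3 list, *Tubb3* (0.44) and *Tubb6* (-0.36) among tubulins, *Septin2* (-0.29) among septins, and *Prc1* and *Top2a* (0.30 each) and *Cit* (-0.25) in the cycling list. None of these was called.

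**Figure D4:**
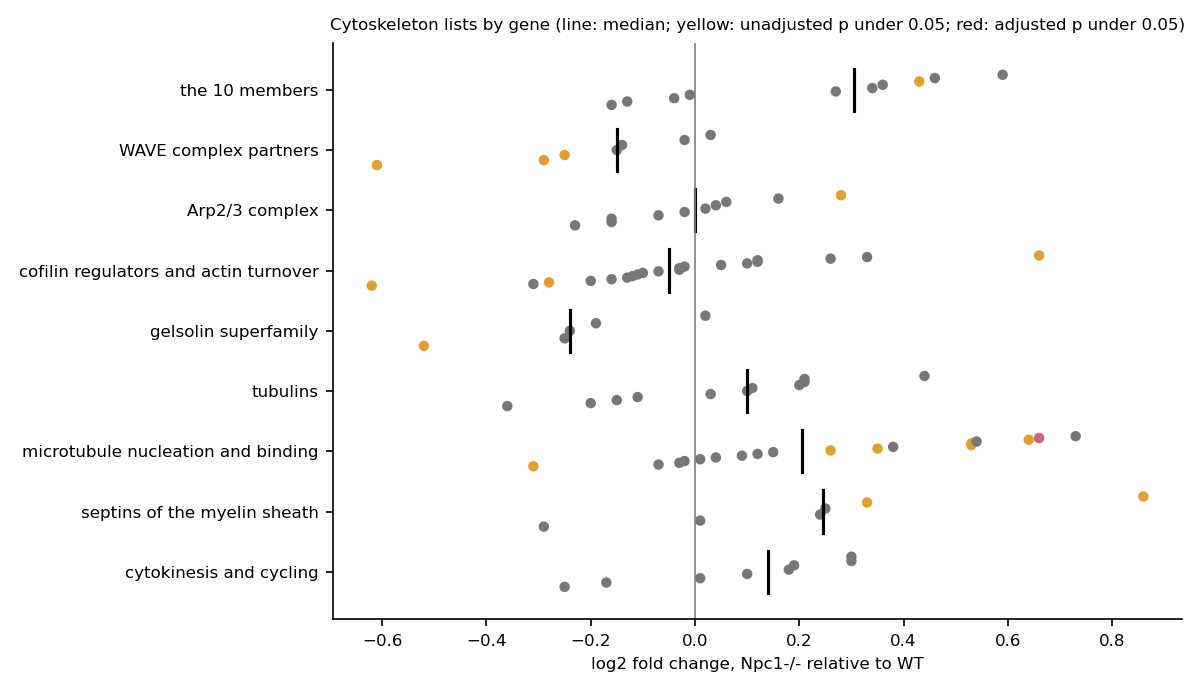
Log2 fold change (horizontal axis) of the 10 members and of each tested gene of 8 cytoskeleton lists, with a black line at each list's median. Only *Stmn3* passed the adjusted threshold (red), and yellow points have an unadjusted p below 0.05.

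The O4 label was checked against marker lists. The 7 mature oligodendrocyte markers summed to 172567 to 243645 in WT and 218344 to 432426 in *Npc1*-/- samples, and all 7 had log2 fold changes above 0, from 0.15 to 0.63, with none called. The 5 OPC markers summed to 78.8 to 87.0 and 72.7 to 135, and 7 immature markers to 2426 to 3509 and 3367 to 5948. That last sum is mostly *Bcas1*, with a mean of 2247 in WT and 3845 in *Npc1*-/- samples. Of the 7 immature markers 5 were below 0, and the median log2 fold change was -0.14. *Itpr2* and *Tcf7l2* lay below WT in every *Npc1*-/- sample, 2 of 7 beside 14.2% of all genes. Transcripts of choroid plexus were present as well, at 3017 to 5484 in WT and 2455 to 5058 in *Npc1*-/- samples, mostly of *Ttr* (means of 3812 and 3266). The 5 astrocyte markers had a median log2 fold change of -0.42, with none called. Of them 4 lay below WT in every *Npc1*-/- sample, beside 14.2% of all genes, while *Gfap* lay above WT in each (log2 fold change 1.01). The 3 tested ependymal markers had a median of -0.59. The part of the higher mature markers in the values of *Gsn*, *Tubb4a*, *Tppp3*, *Cfl2*, *Wasf3* and *Anln* was not tested. Scaled instead to *Olig1*, *Olig2* and *Sox10*, transcription factors of the whole lineage, the 10 genes had log2 fold changes from -0.20 for *Tppp* to 0.55 for *Wasf3*. None was called, and all kept their signs. The 3 factors had log2 fold changes of 0.04, 0.06 and 0.02 in the main fit, so this scaling moved all members alike and by little. It is no test of the part of mature cells.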

How the data were processed

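RNA of O4-purified brain cells from 16-day-old mice (3 WT and 3 *Npc1*-/- samples) was analysed from gene tables. The authors deposited TPM and FPKM for 55492 genes. The deposited tables have 1 column per sample, and within a sample FPKM was TPM times 1 factor. The labels number the samples of each genotype and do not say how many mice gave each. The submitters' processing notes name cutadapt 2.3, STAR 2.7.8a, RSEM 1.3.3 and GRCm38, whereas the methods name bbduk, STAR and featureCounts. Which of them made these values is not given in the sources used here. TPM hold no counts, so no count test was run. The labels do not pair samples, and p-values measure the spread between samples.

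TPM was divided by median-of-ratios size factors, and log2(scaled TPM + 0.5) was fitted, for genes whose TPM averaged 0.5 or more, with limma 3.58.1 in R 4.3.3 (trend, genotype only, two-sided). Shares within families were compared by two-sided exact permutation over 20 arrangements. Positions, lengths and overlaps came from GENCODE M21 on GRCm38 (55141 identifiers matched) and upstream sequences from RefSeq. Of 2 identifiers named *Septin2* the one with the higher TPM was used. The model and the depth search were tested on simulated data. Python 3.11.15 with scipy 1.17.1 was used for the rest.

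Members and lists were chosen with earlier results of these data known. Named were all members, their paralogs, and of each list the called genes and both extremes. Of the 9 lists, 1 enters the totals but is not reported here on its own. *Cyfip1*, *Abi1*, *Cdc42ep1* and the ratios between genes were picked after their values were seen. Alternatives were FPKM, TPM as deposited, quantile normalization, other pseudocounts and filters, no trend, robust estimation, the replicate number as a block, a curve on transcript length (span 0.3), adjusted p below 0.1, and each sample left out. Scaling to *Olig1*, *Olig2* and *Sox10* was added after seeing the data.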

Additional observations from a re-analysis of the deposited data

How the results depend on the processing

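Of the 10 genes, *Gsn*, *Anln* and *Wasf3* stayed above 0 and *Tppp* and *Dstn* below 0 under all 19 alternatives. Many of these could hardly turn a sign, since they leave the mean difference almost as it is. They are FPKM, other pseudocounts and filters, no trend, robust estimation and the replicate block. On TPM as deposited, where the median of all genes was -0.33, the log2 fold change reversed to -0.03 for *Tppp3*, -0.10 for *Tubb4a* and -0.02 for *Cfl2*. Relative to that median they were 0.29, 0.22 and 0.31. Quantile normalization gave -0.11 for *Tubb4a*. With 1 sample left out *Wasf1* ranged from -0.11 to 0.06 and *Cfl1* from -0.10 to 0.03, turning to 0.06 and 0.05 for *Wasf1* without WT replicate 2 or *Npc1*-/- replicate 3, and to 0.03, 0.02 and 0.02 for *Cfl1* without WT replicate 2, WT replicate 3 or *Npc1*-/- replicate 1. Without *Npc1*-/- replicate 3 the share difference of *Cfl1* turned from -0.433 to 0.0947 and that of *Wasf1* from -4.44 to 0.716 percentage points, and with any 1 sample left out they ranged from -0.817 to 0.0947 and from -8.76 to 0.716. The shares of the 6 other members kept their direction. The cause of each was not tested.

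The number of members called, 0, became 1 on TPM as deposited (*Tppp*, lower), 1 at an adjusted p below 0.1 (*Gsn*), 4 with the replicate number as a block and 3 with the block and the curve on transcript length. With the block, *Gsn* (adjusted p = 0.0238 by limma), *Tppp3* (0.0280), *Cfl2* (0.0314) and *Anln* (0.0323) passed, all higher, beside 13.2% of all genes. Deviations of same-numbered samples correlated at 0.414, 0.0602 and 0.326, and each correlated best with its own number. For *Npc1*-/- replicate 2 this was nearly a tie, with 0.0548 for WT replicate 3. These correlations are a hint from the data only, since the samples are not labelled as pairs.

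Of 96 pathway genes, 1 was called. There were 4 on TPM as deposited, 2 after quantile normalization, 0 without a filter, 2 at a mean TPM of at least 5, 0 without trend, 15 with the block, 0 with the curve on length, 12 with block and curve, 0 scaled to lineage factors, 7 at an adjusted p below 0.1, and from 0 to 2 with 1 sample left out. Over all genes 124 were called (61 higher, 63 lower). The count was 924 on TPM as deposited (54 higher, 870 lower), 225 after quantile normalization, 21 without a filter, 447 at a mean TPM of at least 5, 42 without trend, 2011 with the block, 1668 with block and curve, 13 scaled to lineage factors, 1365 at an adjusted p below 0.1, and from 5 (without *Npc1*-/- replicate 2) to 477 (without *Npc1*-/- replicate 3) with 1 sample left out.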
